A study of Homo sapiens with 10 samples.

Results

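Mitochondrial ribosomal protein genes encode the proteins of the ribosome that works inside mitochondria. They were taken as every entry of the deposited expression table whose symbol begins with MRPL or MRPS followed by a digit. The rule gave 78 genes of 20030 entries, 49 named MRPL and 29 named MRPS. All 78 had a mean of at least 1 FPKM (fragments scaled to transcript length and to the size of the library) and were among the 10477 genes tested. The symbols do not fully follow the place of the protein: 51 of the genes, MRPS30 and MRPS18A among them, encode proteins of the large subunit and 26 encode proteins of the small subunit. The remaining gene, MRPS36, is listed in RefSeq as KGD4, a component of the 2-oxoglutarate dehydrogenase complex, and was kept because the rule holds it. Of the other 77 genes, 48 encode proteins with a counterpart in the bacterial ribosome and 29 encode proteins added in mitochondria.

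The study sequenced RNA of 3 liver cancer lines of human origin, called Huh7, PLC and 97H in the labels, to examine how a CDK4/6 inhibitor, an XPO1 inhibitor and their combination change the transcriptome. Each library was 1 line under 1 treatment, 10 in all. Huh7 had a vehicle control and a CDK4/6 inhibitor library. PLC and 97H each had a control, a CDK4/6 inhibitor, an XPO1 inhibitor and a combination library. CDK4/6 inhibitors block the kinases that drive cells from G1 into S phase, and the compound used is not named in the labels. XPO1 (exportin 1) carries proteins and ribosomal subunits out of the nucleus, and sample titles name its inhibitor KPT330, known as selinexor. No genetic change or agent other than these is named for any group. The sources used here give no dose, no time and no strandedness of the counting, and nothing says that libraries of a line came from separate cultures. The replicate was therefore the cell line, and p-values measure only the spread between these libraries.

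The mitochondrial ribosome descends from that of a bacterial ancestor and translates the few messages of mitochondrial DNA, all of which encode membrane subunits of the respiratory chain and of ATP synthase. Its RNAs are made in the organelle, but all of its proteins are encoded in the nucleus, made on cytosolic ribosomes and imported. The large subunit forms peptide bonds and the small subunit reads the message. Liver cells are rich in mitochondria, and many nuclear genes for mitochondrial proteins carry binding motifs for ETS-family factors, YY1 or NRF1 at their promoters.

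Promoter stretches are shown for 5 of the genes because the results below turn on them. MRPL16 and MRPL58 had the most negative fitted differences from control under the combination, and MRPL52 differed most between lines. MRPL9 was lower in every treated library as deposited, and MRPS10 had opposite directions in PLC and 97H. MRPL9 and MRPS10 are printed after their values were seen. Each stretch runs from 150 bases before to 30 bases from the RefSeq start, on the strand of the gene, in GRCh38.p14. Capitals mark the ETS motif CCGGAAG (or its reverse complement) and the YY1 motif AANATGGCG. The stretches lie at chr11:59810749-59810928 (minus strand) for MRPL16, chr17:75012520-75012699 (plus) for MRPL58, chr14:22829737-22829916 (plus) for MRPL52, chr1:151763467-151763646 (minus) for MRPL9 and chr6:42217832-42218011 (minus) for MRPS10.
MRPL16: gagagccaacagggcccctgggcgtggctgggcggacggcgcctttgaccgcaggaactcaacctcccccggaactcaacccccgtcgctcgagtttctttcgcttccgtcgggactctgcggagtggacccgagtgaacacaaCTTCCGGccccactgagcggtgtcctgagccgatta
MRPL58: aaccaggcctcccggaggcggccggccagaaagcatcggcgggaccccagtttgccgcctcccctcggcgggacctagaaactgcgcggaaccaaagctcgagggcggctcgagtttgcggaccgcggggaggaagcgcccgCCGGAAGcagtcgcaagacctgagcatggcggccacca
MRPL52: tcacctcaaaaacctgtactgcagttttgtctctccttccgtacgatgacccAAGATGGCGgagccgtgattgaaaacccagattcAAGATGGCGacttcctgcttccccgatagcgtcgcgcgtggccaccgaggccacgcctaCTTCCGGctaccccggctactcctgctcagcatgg
MRPL9: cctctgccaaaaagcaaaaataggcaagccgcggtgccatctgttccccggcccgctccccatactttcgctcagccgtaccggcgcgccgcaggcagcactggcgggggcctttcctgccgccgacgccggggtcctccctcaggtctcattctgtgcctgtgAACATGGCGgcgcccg
MRPS10: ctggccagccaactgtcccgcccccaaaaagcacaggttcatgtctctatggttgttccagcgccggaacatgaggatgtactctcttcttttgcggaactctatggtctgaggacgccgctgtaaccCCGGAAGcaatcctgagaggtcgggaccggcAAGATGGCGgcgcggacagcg
MRPL16 and MRPL58 each held 1 ETS motif, 6 and 8 bases before the start. MRPL52 held 1 ETS motif and 2 YY1 motifs, MRPS10 held 1 of each, and MRPL9 held 1 YY1 motif.

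RefSeq's promoter table, which gives 250 bases before to 50 bases after each start, held 86 promoters of 70 of the 78 genes. Searched on both strands, CCGGAAG was in 33 of the 86 (38.4%), against 18% of the 12379 promoters of tested genes and 10.3% of all 35116 promoters. AANATGGCG was in 18 of the 86 (20.9%), against 6.41% for tested genes and 3.19% of all. The NRF1 motif was in 10 (11.6%), against 10.5% and 5.78%, and the E-box CACGTG, bound by MYC among others, was in 10 (11.6%), against 9.77% and 7.26%. The last 3 letters of CCGGAAG can be the first 3 of AANATGGCG, and none of the 86 promoters (0) held the motifs fused in this way. The fused form was in 0.0142% of all promoters, so rare that its absence from 86 tells nothing about these genes. A match describes letters, not binding.

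Levels spanned a wide range. The 5 highest genes by mean FPKM over the 10 libraries were MRPL41 (215), MRPL12 (190.03), MRPS24 (187), MRPL51 (139) and MRPS34 (120.1). MRPL41, MRPL51 and MRPS34 encode proteins added in mitochondria, MRPL12 encodes the stalk protein that contacts translation factors, and MRPS24 encodes a small subunit protein of bacterial descent. The 5 lowest were MRPS31 (3.34), MRPL39 (3.63), MRPL1 (5.94), MRPL19 (6.19) and MRPS11 (7.35). The median gene stood at percentile 81.3 of tested genes by mean level, and 72 of the 78 were above the middle of the tested genes. No gene was at 0 FPKM in any library, and the lowest single value was 0.945 FPKM, of MRPS31 in the 97H library with the CDK4/6 inhibitor. The 3 MRPS18 paralogs, copies of 1 bacterial protein that occupy different sites, differed in level: MRPS18B had a mean of 50.7 FPKM, MRPS18A 30.9 and MRPS18C 13.2.

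Some of these genes share sequence or exons with others. In GENCODE 29, 34 of the 78 genes have an annotated pseudogene copy (75 copies in all), and 38 have exons that overlap those of another gene, 27 of them on the opposite strand. Examples among the genes named below are these: MRPL9 overlaps OAZ3, MRPL11 overlaps PELI3, MRPL43 overlaps TWNK and SEMA4G, MRPL49 overlaps FAU and SYVN1, MRPS7 overlaps GGA3 and MIF4GD, and MRPL51 overlaps NCAPD2, all on the opposite strand, and MRPL12 overlaps AC139530.2 on its own strand. MRPS21 has 8 pseudogene copies, MRPS36 and MRPL57 have 5 each, MRPS33 has 3, and MRPL45, MRPL49, MRPS6 and MRPS10 have 2 each. The sources used here do not say how such reads were split in the counting.

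The deposited libraries had 14033 to 15264 genes above 0 FPKM, and their depth is unknown. The 78 genes together took 0.661% to 1.35% of the FPKM sum. Labels were checked against markers. Hepatocyte markers summed to 5494 and 7379 FPKM in Huh7, 775 to 1981 in PLC and 23.5 to 59.0 in 97H. ALB was low in both of the latter, at 3.29 to 9.74 FPKM in PLC and 2.32 to 15.8 in 97H, and SERPINA1 (662 to 1759 FPKM) made up most of the PLC sums. In Huh7 TTR was at 407 FPKM in the control and 3168 with the CDK4/6 inhibitor. APOB and SERPINA1 were also higher there with the inhibitor, while ALB, APOA1, AFP, TF and HNF4A were lower. Of the 4 blood markers, 3 (PTPRC, CD3E, HBB) stayed under 1 FPKM in all libraries. CD68 was at 127 FPKM in the PLC combination library and 22.7 in its control. Fibroblast and stellate markers summed to 31.2 FPKM in the 97H combination library and 3.55 in its control, and to 56.4 in the treated and 16.9 in the control library of Huh7, with LUM and COL1A1 carrying the sums. Biliary markers, mainly KRT19, summed to 427 to 672 FPKM in 97H and to 444 and 540 in Huh7. In PLC they summed to 1.74 to 8.96, with SOX9 (0.871 to 7.44) above KRT19 (0.829 to 1.25) in every library. Whether these marker levels have a part in the results below was not tested, and in bulk RNA fewer cells of a type and less RNA per cell cannot be told apart.

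The median FPKM of the 78 genes was 33.0 in the Huh7 control and 18.4 with the CDK4/6 inhibitor. In PLC the control stood at 39.7, the CDK4/6 inhibitor library at 36.3, that of the XPO1 inhibitor at 41.0 and the combination at 34.6. In 97H it was 37.0 in the control, 27.8, 30.2 and 25.2 in the same order of treatments. The Huh7 CDK4/6 inhibitor library had the lowest of all 10. The differences below are on the log2(FPKM + 1) scale, which understates those of genes at low FPKM.

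**Figure D1:**
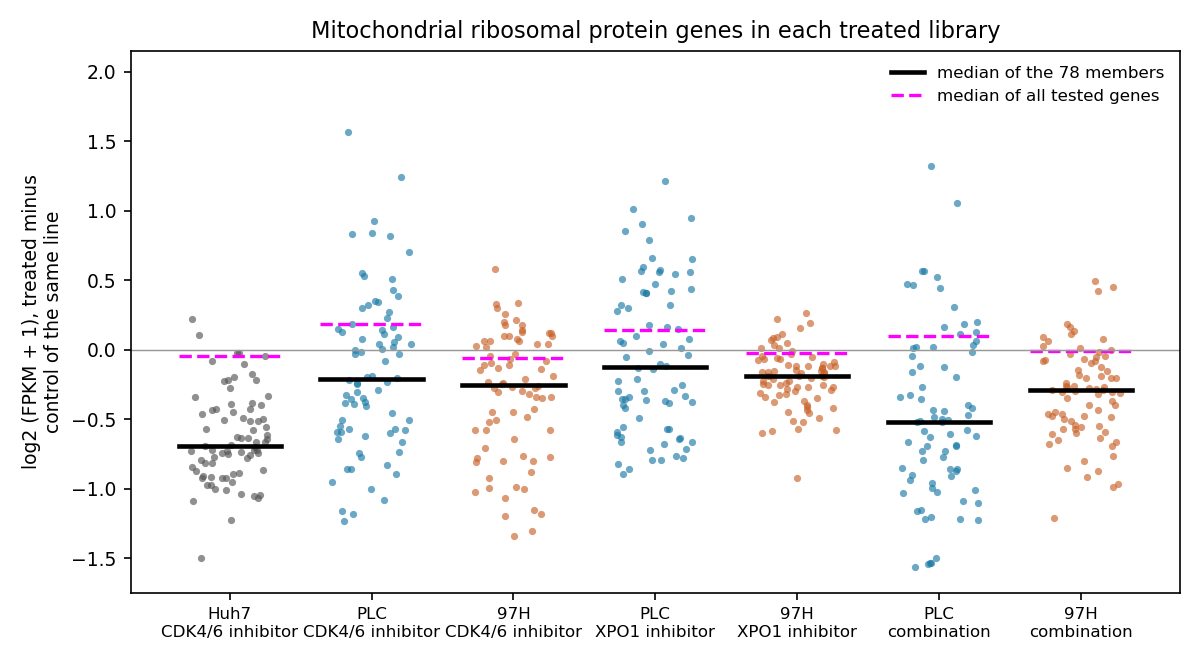
Difference of each of the 78 genes from the control of the same cell line, as log2 (FPKM + 1), in the 7 treated libraries. Each point is a gene, the black bar is the median of the 78 genes and the dashed bar the median of all 10477 tested genes. The black bar lies below the dashed bar in every library, furthest in Huh7 (-0.69 against -0.04) and in the PLC combination library (-0.52 against 0.10).

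The CDK4/6 inhibitor was compared with control in all 3 lines. The 78 genes had mostly lower values with the inhibitor, above all in Huh7. There 76 of 78 were lower, with a median log2 difference of -0.69 against -0.04 for all tested genes, and only MRPL41 and MRPS6 were higher. In PLC 47 of 78 were lower, with a median of -0.21 against 0.18. In 97H 54 of 78 were lower, with a median of -0.25 against -0.06. In Huh7 47 genes (60.3%) were lower by at least 1.5-fold, where 14.6% of all tested genes were. In PLC 19 (24.4%) and in 97H 20 (25.6%) were lower by as much, beside 16.0% and 18.8% of all tested genes. With 1 library a group, these within-line counts have no replicate check.

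Across the 3 lines 24 genes (30.8%) were lower in every line and 0 were higher in every line, against 10.3% and 12.9% of all tested genes. The fitted median was -0.37, against 0.03 for all tested genes. No gene passed the test: limma called 0 of the 78 at an adjusted p of 0.05, as it called 0.0% of all tested genes, and the smallest adjusted p of the 78 was 0.470. At an unadjusted p under 0.05 there were 19 of the 78 (24.4%), all lower, against 8.8% of tested genes. The spread between the lines was wide, with line medians of -0.39 ± 0.27 (SD, n = 3). Without the Huh7 control or without the Huh7 inhibitor library the fitted median was -0.25.

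By the smallest p with 1 direction in all lines, the genes were MRPL11, MRPL24 and MRPL9, all of the large subunit. MRPL11, at the base of the stalk where translation factors bind, was at 91.3 FPKM in the Huh7 control and 31.7 with the inhibitor, 47.7 and 22.0 in PLC, and 16.8 and 12.1 in 97H. Each treated value was under its own control, but the lines overlapped, since the Huh7 treated library was above both 97H libraries. The fitted difference of MRPL11 was -1.01 (SE 0.27, limma adjusted p = 0.470). MRPL24, an early assembly protein in the bacterial ribosome, was at 60.3 and 34.4 FPKM in Huh7, 80.7 and 35.0 in PLC and 142 and 122 in 97H. Its fitted difference was -0.73 (SE 0.23, adjusted p = 0.492). MRPL9 was at 34.9 and 17.9 in Huh7, 55.2 and 36.3 in PLC and 117 and 91.8 in 97H, a fitted difference of -0.62 (SE 0.21, adjusted p = 0.493). In all 3 genes the gap to control was smallest in 97H, a difference between lines that was not tested.

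The XPO1 inhibitor was compared with control in PLC and 97H. The lower values were smaller in size than with the CDK4/6 inhibitor in Huh7 and pointed in mixed directions in PLC. In PLC 44 of 78 genes were lower, with a median of -0.13 against 0.14 for all tested genes, and 17 (21.8%) were lower by at least 1.5-fold, where 16.6% of all tested genes were. In 97H 66 of 78 were lower, with a median of -0.19 against -0.02, but only 3 (3.85%) by at least 1.5-fold, where 6.0% of all tested genes were. In both lines 38 genes (48.7%) were lower and 6 (7.69%) were higher, against 16.8% and 21.7% of all tested genes.

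No member of the set was called by limma (0 of 78, and 0.0% of all tested genes). The smallest adjusted p was 0.968, and 0 of the 78 had an unadjusted p under 0.05, against 2.46% of tested genes. The fitted median was -0.15 against 0.10, and it was -0.25 without the PLC inhibitor library and -0.09 without that of 97H. Among genes lower in both lines the smallest p belonged to MRPL12, MRPL58 and MRPL4, which lines the exit tunnel. MRPL12 was at 277 FPKM in the PLC control and 161 with the inhibitor, and at 307 and 229 in 97H, a fitted difference of -0.60 (SE 0.27, adjusted p = 0.968). MRPL58 and MRPL4 had differences of -0.60 and -0.53. Among genes higher in both lines they were MRPL45 (0.53), which anchors the ribosome to the inner membrane, MRPL51 (0.31) and MRPS6 (0.16), all with an adjusted p of 0.968. The difference of MRPL45 ran from 0.047 to 1.01 when libraries were left out in turn.

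Within PLC and within 97H the combination library had the lowest median of these genes. In PLC 59 of 78 genes were lower than in control, with a median of -0.52 against 0.10 for all tested genes, and 37 of them (47.4%) were lower by at least 1.5-fold, where 17.0% of all tested genes were. In 97H 66 of 78 were lower, with a median of -0.29 against -0.01, and 16 (20.5%) were lower by at least 1.5-fold, where 14.8% were. In both lines 51 genes (65.4%) were lower and 4 (5.13%) higher, against 24.2% and 29.6% of all tested genes. The fitted median was -0.46 against 0.07, and it was -0.23 without the PLC combination library.

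limma called 0 of the 78 genes for the combination, while it called 0.792% of all tested genes (83 genes, with 0.305% higher and 0.487% lower). That count changed with single libraries: it was 0 without the PLC combination or the PLC control library, 2 without the 97H combination library, 158 and 184 without the CDK4/6 inhibitor library of PLC and of 97H, and 166 without the 97H control. The smallest adjusted p of the 78 was 0.106. At an unadjusted p under 0.05 there were 15 of the 78 (19.2%), all lower, against 12.4% of tested genes. The 2 single inhibitors and the combination were compared with the same control libraries, so these counts are not independent of each other.

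MRPL16, which sits near the site of peptide bond formation, had the smallest p. In PLC it was at 59.2 FPKM in the control and at 38.9, 48.1 and 20.2 under the CDK4/6 inhibitor, the XPO1 inhibitor and their combination. In 97H it was at 49.9, 39.8, 44.4 and 24.6 in the same order, and in Huh7 at 60.7 in the control and 35.9 with the CDK4/6 inhibitor. Both combination libraries were below all 8 others. The fitted difference from control was -1.25 (SE 0.28, limma adjusted p = 0.106). When all 10 libraries entered the fit it was -1.30 with an adjusted p of 0.0298, and when trends with GC content and length were removed from each library it was -1.22 with an adjusted p of 0.0183, so its call changed with these settings. With all 10 libraries MRPL16 was the 1 gene called of the 78 (1.28%), beside 2.49% of all tested genes.

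MRPL58 encodes a large subunit protein that is also a peptidyl-tRNA hydrolase able to rescue stalled ribosomes. It was at 35.8 FPKM in the PLC control and at 20.6, 18.9 and 11.4 in the treated libraries, in the same order as for MRPL16. In 97H the values were 46.6, 37.7, 37.3 and 26.4, and in Huh7 17.0 and 11.6. Within PLC and within 97H the order was control highest and combination lowest, with the single inhibitors close together. The combination minus control difference was -1.18 (SE 0.31, adjusted p = 0.161).

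MRPL12 was at 118 FPKM in the PLC combination library and 206 in that of 97H, each the lowest of its line. The CDK4/6 inhibitor libraries stood at 152 in PLC and 278 in 97H, and Huh7 was at 105 in control and 65.9 with this inhibitor. The combination minus control difference of MRPL12 was -0.90 (SE 0.27, adjusted p = 0.208). With GC and length trends removed, 5 of the 78 genes were called lower under the combination, a share of 6.41% beside the 6.51% of all tested genes (682) called in that fit: MRPL16, MRPL58 (-1.14, adjusted p = 0.0295), MRPL12 (-0.94, adjusted p = 0.0276), MRPL3 (-1.01, adjusted p = 0.0263) and MRPS26 (-0.94, adjusted p = 0.0361).

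Genes with higher values under the combination in both lines and the smallest p were MRPS21 (0.30), MRPL52 (0.32) and MRPS36 (0.29), with limma adjusted p of 0.764 to 0.859. MRPS21 was at 36.9 FPKM in the PLC control and 51.3 with the combination, but at 20.3 and 22.4 in 97H. MRPS36, the gene of the dehydrogenase complex, was at 13.5 and 14.8 in PLC and 6.74 and 9.56 in 97H. Its direction turned to -0.16 without the 97H combination library.

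**Figure D2:**
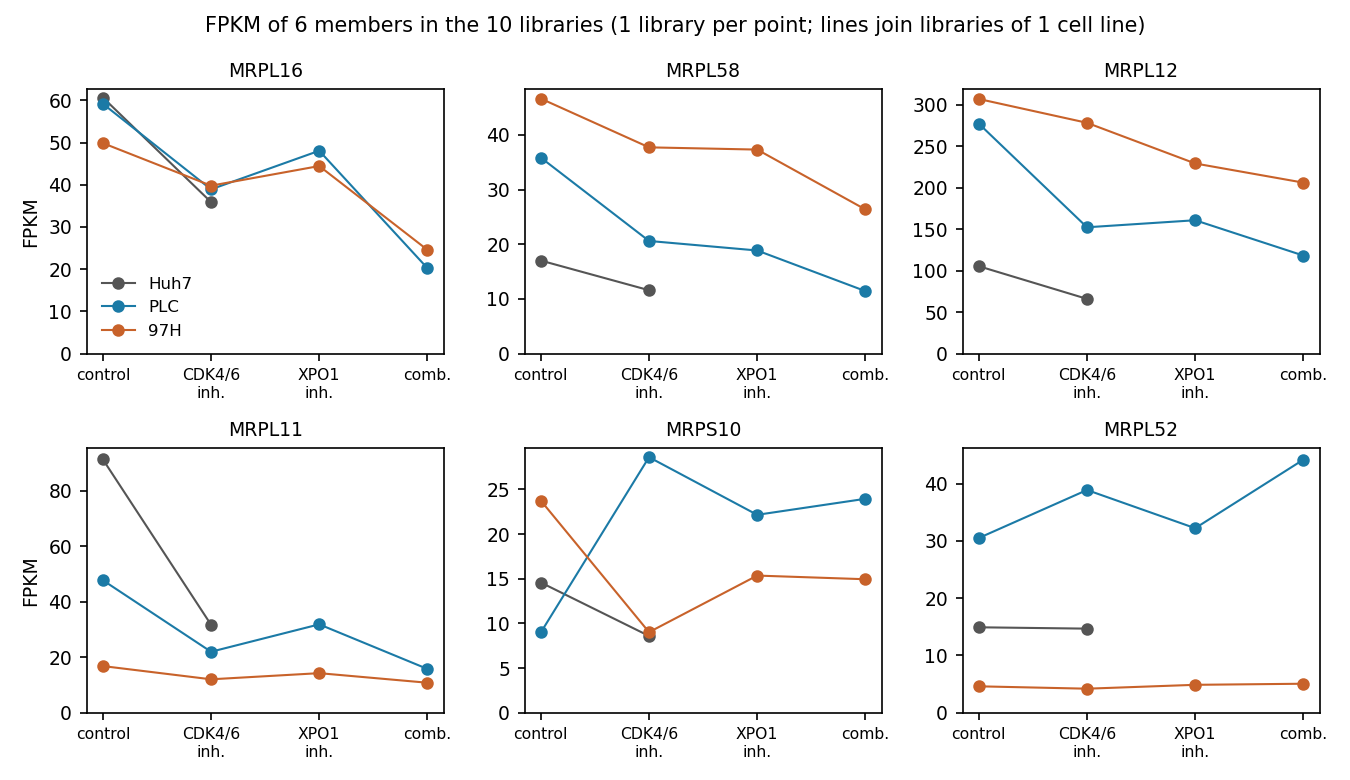
FPKM of MRPL16, MRPL58, MRPL12, MRPL11, MRPS10 and MRPL52 in each of the 10 libraries, on a linear axis from 0, with libraries of a cell line joined. MRPL16 is lowest in the 2 combination libraries (20.2 and 24.6 FPKM), MRPS10 moves in opposite directions in PLC and 97H, and MRPL52 stays at 4.2 to 5.07 FPKM in 97H.

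The combination was also set against each inhibitor alone. Against the CDK4/6 inhibitor, 67 of 78 genes were lower in PLC (median -0.26) and 47 in 97H (median -0.12). The fitted median was -0.17 against -0.01 for all tested genes. It was -0.30 without the 97H combination library and -0.08 without that of PLC. Against the XPO1 inhibitor, 62 were lower in PLC (median -0.45) and 53 in 97H (median -0.09), with a fitted median of -0.29 against -0.04. It was -0.14 without the PLC combination library and -0.19 without the PLC XPO1 inhibitor library.

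In both comparisons limma made 0 calls among the 78 genes and among all tested genes (0.0%), while 1 of the 78 (1.28%, MRPL16) and 3 (3.85%, MRPL16, MRPL3 and MRPS27) had an unadjusted p under 0.05, against 3.29% and 4.96% of tested genes. MRPL16 differed by -0.79 (SE 0.28, adjusted p = 1) from the CDK4/6 inhibitor and by -1.02 (SE 0.28, adjusted p = 0.564) from the XPO1 inhibitor. Next among the lower genes were MRPL58 (-0.65) and MRPL17 (-0.44) against the CDK4/6 inhibitor, and MRPS27 (-0.72), a small subunit protein of the pentatricopeptide repeat type, and MRPL3 (-0.85) against the XPO1 inhibitor. In the first comparison MRPS33 (0.28), MRPS21 (0.17) and MRPL52 (0.20) were higher in both lines. Among the genes higher in both lines in the second, MRPL55 (0.45), MRPL41 (0.37) and MRPL52 (0.24) had the smallest p, and all 6 of these differences had an adjusted p of 1. The interaction, the combination's difference beyond the sum of the single inhibitors, had a fitted median of -0.04 over the 78 genes against -0.11 for all tested genes. The medians within the 2 lines had the other sign, 0.028 and 0.050, so the median gives no direction. limma called 0 of the 78 for it (0.0% of tested genes), and 0 had an unadjusted p under 0.05 (0.573% of tested genes). MRPL16 was at -0.56 (SE 0.40) and MRPL55 at 0.37 (SE 0.45), neither passing, and MRPL14 (0.29), MRPL4 (0.27), MRPL44 (-0.44) and MRPS6 (-0.39) were the others with the smallest p.

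In all 7 treated libraries together, 18 genes (23.1%) were lower than their controls and 0 higher, against 5.56% and 6.02% of all tested genes. Those lower were MRPL4, MRPL9, MRPL11, MRPL12, MRPL16, MRPL17, MRPL22, MRPL24, MRPL37, MRPL38, MRPL46, MRPL53 and MRPL58, and MRPS5, MRPS16, MRPS18B, MRPS27 and MRPS30. Within PLC 42 genes (53.8%) were lower in all 3 treated libraries and 17 (21.8%) higher, against 28.2% and 42.7% of all tested genes. Within 97H 45 (57.7%) were lower and 2 (2.56%) higher, against 32.9% and 27.9%. In the 3 treated PLC libraries, as deposited, the large subunit genes had lower medians than those of the small subunit: -0.25 and -0.11 under the CDK4/6 inhibitor, -0.21 and 0.011 under the XPO1 inhibitor, and -0.67 and -0.37 under both. With GC and length trends removed, this order was reversed in PLC under the CDK4/6 inhibitor. The medians were then nearly equal under the XPO1 inhibitor, and only the combination kept the order. In 97H the medians were closer, -0.24 and -0.31, -0.19 and -0.19, and -0.30 and -0.30. In Huh7 with the CDK4/6 inhibitor they were at -0.67 and -0.73. Genes with a bacterial counterpart and genes added in mitochondria had medians of -0.59 and -0.51 in the PLC combination library and of -0.35 and -0.28 in that of 97H. No test was made between these groups of genes.

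The differences followed the GC content of the transcripts, with opposite slopes in PLC and 97H. GC content over the 78 genes ran from 35.0% to 71.9%. Across the 78 genes Spearman's rho between the difference from control and GC content was -0.72 in PLC and 0.77 in 97H with the CDK4/6 inhibitor, and -0.76 and 0.43 with the XPO1 inhibitor. It was -0.32 and 0.20 with the combination, and 0.15 in Huh7. The genes of a library share its preparation and depth, so these values are descriptions and carry no p. All tested genes showed the same slopes, at -0.67 and 0.72, -0.71 and 0.46, -0.29 and 0.26, and 0.18 in Huh7, each within 0.1 of that of the 78 genes.

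The 26 genes with the lowest GC content (35.0% to 45.6%) stood, under the CDK4/6 inhibitor, at a median of 0.17 for PLC and of -0.79 for 97H. The 26 with the highest (53.0% to 71.9%) had medians of -0.60 and 0.08. With the XPO1 inhibitor the medians in PLC were 0.43 at low and -0.60 at high GC content. In Huh7 they were close, -0.73 and -0.66. After trends with GC content and length were removed from every library, the median of the 78 genes was below 0 in all 7 treated libraries. It was -0.52 in Huh7, -0.43, -0.29 and -0.52 in PLC and -0.23, -0.19 and -0.37 in 97H, in the order CDK4/6 inhibitor, XPO1 inhibitor, combination. The trends were fitted over all tested genes, and a relation to GC content remained among the 78. Their rho was -0.08 in Huh7, 0.29, 0.33 and 0.04 in PLC and -0.08, -0.40 and -0.32 in 97H, in the same order. Each sign was opposite to that before removal. The number lower in all 7 then was 33 of 78 (42.3%), against 11.9% of all tested genes, and 62 of 78 (79.5%) were lower in both lines under the combination, against 31.5%. Of the 18 genes lower in all 7 libraries as deposited, 11 were among the 33. The 7 that were not are MRPL4, MRPL9, MRPL17, MRPL22, MRPS5, MRPS16 and MRPS27.

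**Figure D3:**
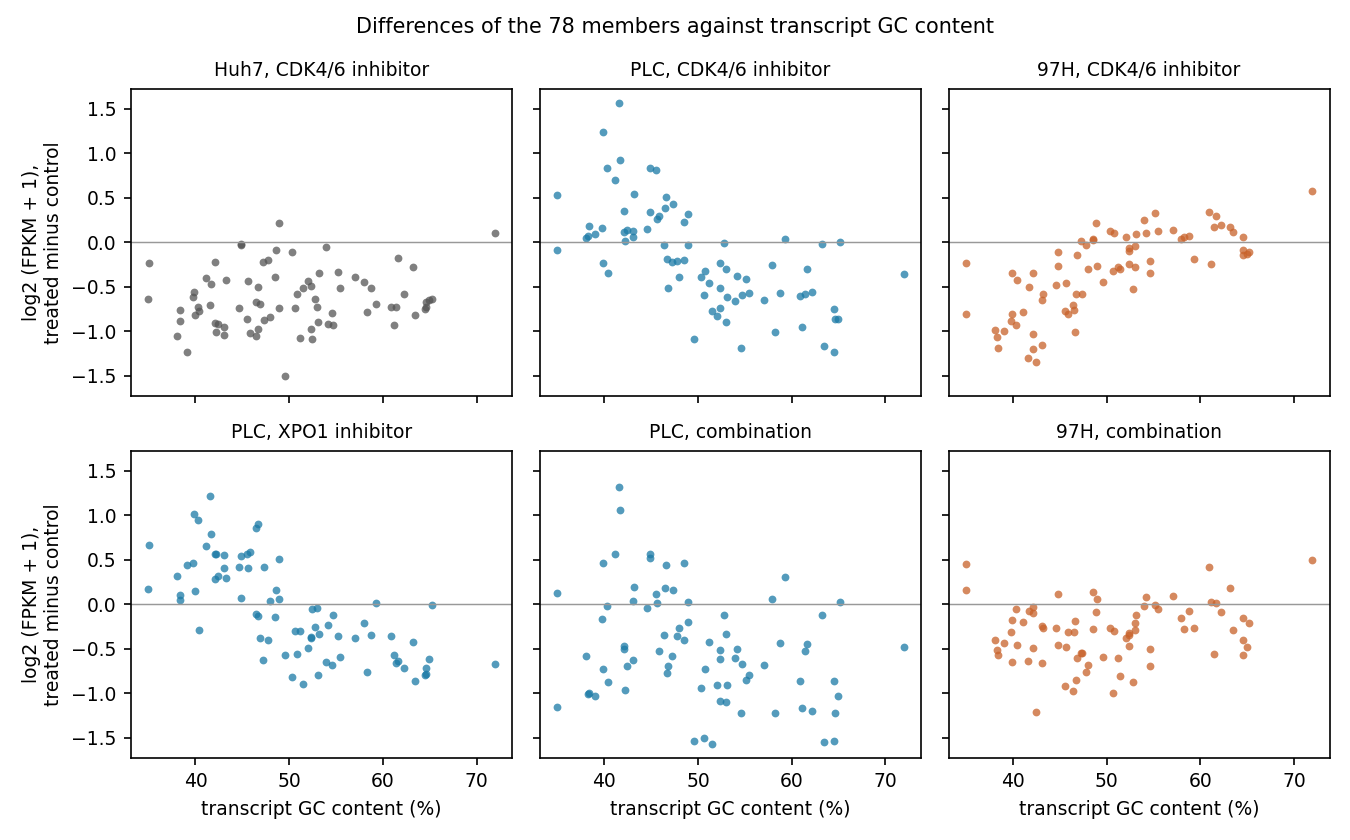
Difference of each of the 78 genes from the control of its line, as log2 (FPKM + 1), against the GC content of its transcript in percent, in 6 of the 7 treated libraries. With the CDK4/6 inhibitor the points fall with GC content in PLC (rho -0.72), rise in 97H (rho 0.77) and lie nearly level in Huh7 (rho 0.15).

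PLC and 97H were compared over their 4 matched treatments, where the spread is that between treatments and not between separate cultures. limma called 37 of the 78 genes (47.4%), 31 higher and 6 lower in PLC, close to the 44.3% of all tested genes called (27.7% higher, 16.6% lower). At an unadjusted p under 0.05 there were 41 of the 78 (52.6%) and 52.4% of tested genes. The median of the 78 was 0.45 against 0.26. Other scalings moved the split: 23 higher and 8 lower after quantile normalization, 17 and 8 after median ratio scaling, which moved the median of all tested genes from 0.26 to 0.02, and 32 and 13 with GC and length trends removed. In these fits 45.6%, 42% and 59.1% of all tested genes were called. Called genes numbered 18 without either XPO1 inhibitor library, 23 without the PLC and 24 without the 97H CDK4/6 inhibitor library, where 30.6%, 31%, 35.9% and 36.4% of all tested genes were called (PLC before 97H). Of the 51 large subunit genes 18 were higher and 5 lower in PLC, and of the 26 small subunit genes 12 and 1.

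MRPL52, a large subunit protein added in mitochondria, differed most. It was at 30.5, 38.9, 32.2 and 44.2 FPKM in the PLC control, CDK4/6 inhibitor, XPO1 inhibitor and combination libraries, and at 4.62, 4.2, 4.88 and 5.07 in those of 97H. The lines did not overlap, and Huh7 lay between them at 14.9 and 14.7. The difference was 2.71 (SE 0.24, limma adjusted p = 3.00e-05) and lay between 2.63 and 2.78 when libraries were left out in turn. MRPL57 was at 21.2 to 28.4 FPKM in PLC and 6.95 to 8.92 in 97H (1.55, SE 0.23). MRPL43 was at 35.2 to 57.2 and 13.2 to 16.9 (1.40, SE 0.23), and MRPL18, a counterpart of the bacterial protein that binds 5S rRNA, at 132 to 179 and 46.7 to 75.5 (1.32, SE 0.18). MRPL45 was at 32.1 to 60.9 and 10.1 to 23.9 (1.29, SE 0.27). In each of these genes all PLC libraries were above all 97H libraries.

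The 5 largest differences in the other direction were led by MRPL24 and MRPL9. MRPL24 was at 34.1 to 80.7 FPKM in PLC and 99.6 to 142 in 97H (-1.34, SE 0.21, limma adjusted p = 0.00101). MRPL9 was at 34.4 to 55.2 and 71.9 to 117 (-1.11, SE 0.18, adjusted p = 0.00120). MRPL58 (-0.83, adjusted p = 0.0148), MRPS7 (-0.71, adjusted p = 0.0138), a counterpart of a bacterial protein that starts small subunit assembly, and MRPL51 (-0.64, adjusted p = 0.0246) were lower in PLC by less. MRPL58 lost its call without either XPO1 inhibitor library (-0.78) or either combination library (-0.72), MRPS7 without either CDK4/6 (-0.66) or XPO1 inhibitor library (-0.66), and MRPL51 without either XPO1 (-0.69) or combination library (-0.54). With a single prior variance in limma MRPL51 had no call either.

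**Figure D4:**
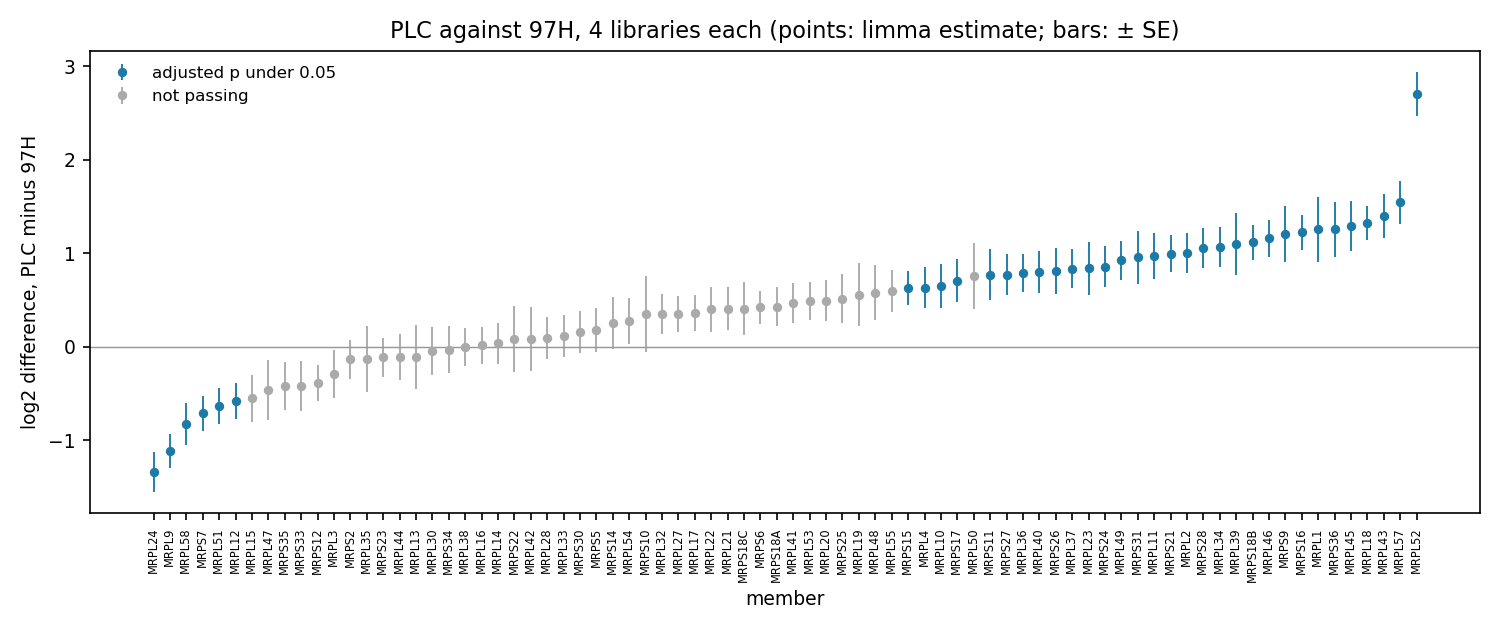
Fitted log2 difference of PLC minus 97H for each of the 78 genes, ordered by size, with bars of ± SE over 4 libraries a line. MRPL52 stands apart at 2.71, and 31 genes higher and 6 lower in PLC have an adjusted p under 0.05.

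Control levels of single genes differed between lines too. The widest range of the 3 controls was that of MRPL52 (2.49 on the log2 scale), followed by MRPL11 (2.37), MRPL43 (1.84), MRPL49 (1.82) and MRPL9 (1.72). MRPL11 was highest in Huh7, MRPL43, MRPL49 and MRPL52 were highest in PLC, and MRPL9 was highest in 97H. No line was the highest for all of them, and with 1 control a line these ranges were not tested.

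MRPS10, a small subunit protein of bacterial descent, showed the widest contrast between the responses of PLC and 97H. It was at 8.99 FPKM in the PLC control and at 28.6 under the CDK4/6 inhibitor, 22.1 under the XPO1 inhibitor and 23.9 under both. In 97H it was at 23.7 in the control and at 9.02, 15.4 and 14.9, and in Huh7 at 14.6 and 8.59. All treated PLC values were above their control, and all treated 97H values were below theirs. Each set of 3 shares a single control library, so these are not 3 separate readings. Such a split, higher in all treated PLC and lower in all treated 97H libraries, occurred in 11 of the 78 genes (14.1%) and in 17.8% of all tested genes. The transcript of MRPS10 has a GC content of 41.6%, among the 26 lowest. With GC and length trends removed MRPS10 kept its opposite directions, at 0.71, 0.37 and 1.05 in PLC and -0.68, -0.34 and -0.50 in 97H.

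Other genes of mitochondrial translation, taken from lists chosen with earlier results of these data known, were set beside the 78. In each treatment against control limma called 0 genes of the lists below. A list of 6 genes held mitochondrial ribosome proteins under other names and OXA1L, which inserts new proteins into the inner membrane and is not a ribosomal protein. Its medians were -0.18 (PLC) and -0.32 (97H) under the combination. In PLC OXA1L, GADD45GIP1 and AURKAIP1 were lower than in control and CHCHD1, DAP3 and PTCD3 were higher, so the sign of the PLC median depends on OXA1L. The fitted combination difference was -0.69 (SE 0.28, adjusted p = 0.342) for OXA1L and -0.60 (SE 0.27, adjusted p = 0.403) for GADD45GIP1. The 27 genes for ribosome assembly and rRNA modification were at medians of -0.41 (PLC) and -0.31 (97H) under the combination. C1QBP had the smallest p among them at -1.23 (SE 0.26, adjusted p = 0.088), followed by DHX30, a helicase of ribosome assembly, at -0.85 (SE 0.38, adjusted p = 0.401). The 15 translation factors were at 0.17 (PLC) and -0.30 (97H), with TSFM at -0.64 and TUFM, the elongation factor, at -0.51. The 17 tRNA synthetases had medians of -0.03 and -0.28, with MARS2 at -1.07 and TARS2 at -0.87. The 18 genes of mitochondrial transcription and RNA processing had medians of -0.09 and -0.30, with HSD17B10 at -0.93 and TBRG4 at -0.79.

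Among 7 transcription factors of nuclear mitochondrial genes the CDK4/6 inhibitor difference was -0.61 (SE 0.26, adjusted p = 0.549) for MYC and -0.58 (SE 0.26, adjusted p = 0.567) for NRF1, and the median of the 7 was -0.21. Under the XPO1 inhibitor MYC was at 0.41 (SE 0.34, adjusted p = 0.968). The 80 nuclear genes of oxidative phosphorylation, whose products sit beside those made by the mitochondrial ribosome, were at medians of -0.48 (PLC) and 0.06 (97H) under the combination, with ATP5MC1 at -1.14 and CYC1 at -1.09. The 83 cytosolic ribosomal protein genes had lower medians than the 78 mitochondrial ones in both combination libraries, -1.14 in PLC and -0.48 in 97H. At an unadjusted p under 0.05 there were 53 of these 83 (63.9%) under the combination and 48 (57.8%) with the CDK4/6 inhibitor, against 12.4% and 8.8% of all tested genes. RPL3 (-1.32, SE 0.25, adjusted p = 0.067) and RPL10A (-1.32, SE 0.27, adjusted p = 0.074) had the smallest p. In Huh7 with the CDK4/6 inhibitor the mitochondrial and the cytosolic ribosomal genes had close medians, -0.69 and -0.62, and oxidative phosphorylation genes were at -0.31. All these list medians are of values as deposited, with no trend in GC content or length removed.

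**Figure D5:**
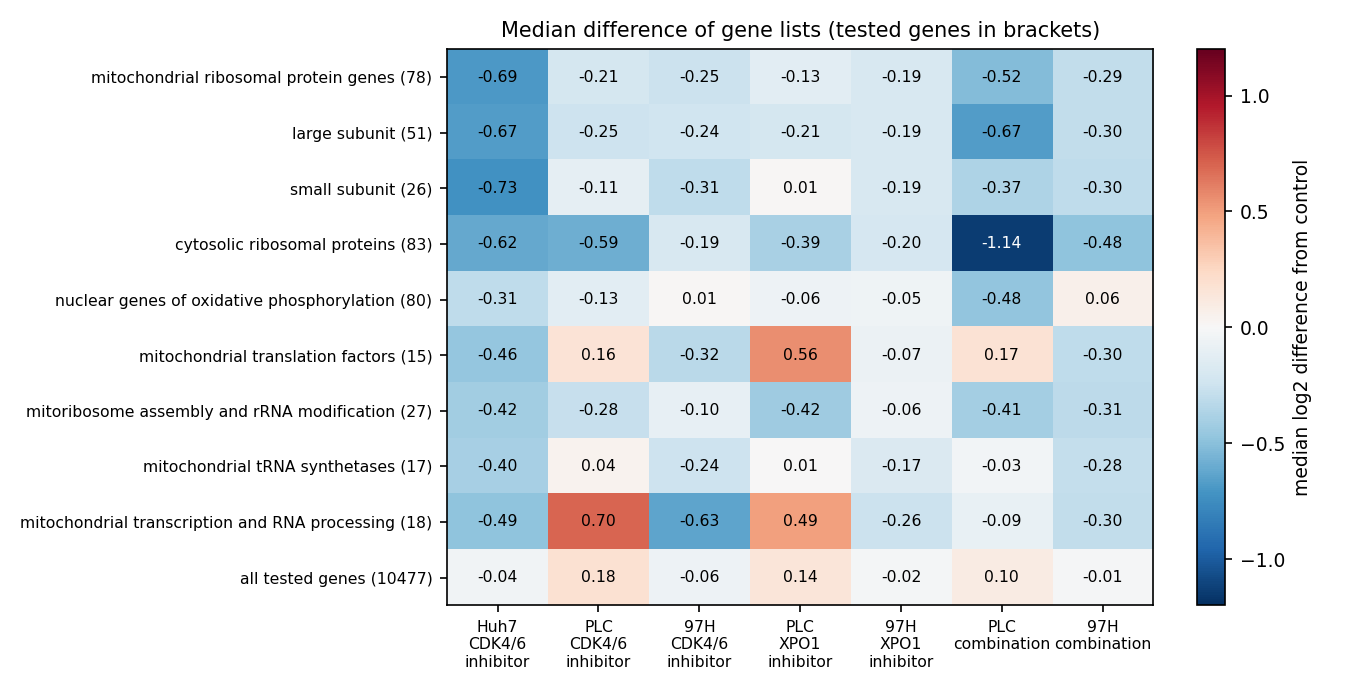
Median difference from the control of the same line, on the log2 (FPKM + 1) scale, for the 78 genes, their subunits, the lists of related genes and all tested genes in the 7 treated libraries. The number of tested genes is in brackets, and cells run from blue (lower than control) to red (higher); the 78 genes are below 0 in all 7 libraries and lowest in Huh7 at -0.69.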

How the data were processed

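The deposited values are FPKM made by the authors. The submitters' processing notes name CASAVA 1.8.2, STAR 2.4.2g1, featureCounts and Subread (no version) and the build GRCh38, with neither strandedness nor the step to FPKM. Dates in place of 27 symbols were undone through accessions. Reads could not be recovered, so no count model was run.

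The genes and lists were chosen with earlier results of these data known. Tests used limma 3.58.1 (R 4.3.3; lmFit and eBayes with trend, two-sided, Benjamini-Hochberg over all tested genes) on log2(FPKM + 1). Tested were the 10477 genes whose FPKM averaged 1 or more over all 10 libraries. Libraries of a cell line were paired, from the labels, by a block for line (a block for treatment in PLC minus 97H). The CDK4/6 inhibitor comparison used 10 libraries (4 residual degrees of freedom), the others the 8 of PLC and 97H (3). The fit was tested on simulated data. GC content, length and positions came from GENCODE 29, promoters from RefSeq. Named genes were those called, up to 5 in each direction by size, otherwise 3 in each direction with the smallest p and 1 sign in every line. Added were the 5 highest, the 5 lowest, the MRPS18 paralogs, the 5 with the widest control range and 2 to 4 of each list by p. Alternatives were the pseudocount, filters, scalings, prior variance, block, libraries fitted, GC and length trends, and each library left out. The medians and signs within lines after trend removal were added after the data had been seen.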

Additional observations from a re-analysis of the deposited data

Results flagged for a closer look

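In 12 of the 78 genes every treated PLC library moved one way from its control and every treated 97H library the other way. The difference between the lines was not tested, and each line's 3 differences share 1 control library. In 11 genes the values were higher in treated PLC and lower in treated 97H. The mean of the 3 log2 differences in PLC minus that in 97H was 2.21 for MRPS10, 1.51 for MRPL35, 1.18 for MRPS9, 1.16 for MRPS33 and 1.04 for MRPS35. It was 0.93 for MRPL44, a protein related to RNase III, 0.91 for MRPL15, 0.88 for MRPS17, 0.72 for MRPS28, 0.68 for MRPL30 and 0.65 for MRPL32. MRPL54 had the reverse pattern, with -0.87. The first pattern held for 17.8% of all tested genes and the reverse for 10.3%, so the 14.1% and 1.28% of the 78 genes do not exceed the background. With GC and length trends removed, only MRPS10 and MRPL35 of the 11 kept the pattern, and MRPL54 lost the reverse one. The first pattern was then seen in 6 of the 78 genes (7.69%) and 8.79% of all tested genes. The reverse was seen in 0 of the 78 and 8.07% of all tested genes. In Huh7 with the CDK4/6 inhibitor all 12 genes were lower than in control. Of 20 groups of 4 libraries checked for a library far from the others, none passed Dixon's critical value of 0.829.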

How the results depend on the processing

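Of 43 results on named genes, 31 kept their direction and side of the threshold in every alternative run. The 0 calls among the 78 genes held in all alternatives for the CDK4/6 inhibitor, the XPO1 inhibitor, the interaction and the combination against either inhibitor. In these runs at most 0.659% of all tested genes were called, for the combination against the XPO1 inhibitor with GC and length trends removed. For the combination against control, 1 gene (1.28%) was called with all 10 libraries in the fit and 5 (6.41%) with GC and length trends removed, the fit that also kept the block, beside 2.49% and 6.51% of all tested genes. The XPO1 inhibitor median of -0.15 was -0.27 after median ratio scaling, -0.23 with all 10 libraries and -0.24 with GC and length trends removed. The interaction median of -0.04 was -0.023 after quantile normalization, and it turned to 0.072 after median ratio scaling, 0.10 with all 10 libraries and 0.13 with the trends removed. The PLC minus 97H median of 0.45 was 0.27 after quantile normalization, 0.16 after median ratio scaling and 0.31 with the trends removed. With the trends removed, MRPS6 under the XPO1 inhibitor turned to -0.036, MRPL41 in the combination minus XPO1 inhibitor to -0.094 and MRPL4 in the interaction to -0.070. The cause was not tested.

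Leaving out each library in turn gave medians of -0.48 to -0.25 for the CDK4/6 inhibitor, -0.25 to -0.085 for the XPO1 inhibitor, -0.52 to -0.23 for the combination, -0.30 to -0.083 and -0.37 to -0.14 for the combination against the CDK4/6 and the XPO1 inhibitor, -0.11 to 0.10 for the interaction and 0.42 to 0.52 for PLC minus 97H. Calls stayed at 0 for the drug comparisons and ran from 18 to 38 for PLC minus 97H, as 30.6% to 53.8% of all tested genes were called. The interaction difference of MRPL44 ran from -0.90 to 0.021, MRPS33 in the combination minus CDK4/6 inhibitor from -0.092 to 0.65, and MRPS36 under the combination from -0.16 to 0.74. Where a group was left with 1 library, it is assumed to vary like the others. Without the pairing (no replicate block), 0 mitochondrial ribosomal protein genes were called in the drug comparisons, where 0% of all tested genes were called. Between PLC and 97H, 36 of them (46.2%) were called in this fit, which did not exceed the 48.3% of all tested genes. Depth is unknown, so no counting error can be given.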
